A study of Arabidopsis thaliana with 8 samples.

Results

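Probe sets for DNA replication licensing and core histone genes were read as a presumed sign of cell cycle entry in imbibing seed of Arabidopsis thaliana Col-0. Cell cycle entry itself was not measured. A probe set was taken if its only gene symbol in the platform annotation was PRL, or began with MCM, ORC, CYCA, CYCB, CYCD, CDKB, HTA, HTB or HTR. The rule used no measured value, and it found 6 of 22746 probe sets other than controls. These were PRL, the H2B genes HTB1, HTB2, HTB4 and HTB11, and the H3 variant gene HTR12. No symbol with the other 7 starts was named for a single-gene probe set in the annotation, so cyclins A, B and D, CDKB, H2A, ORC and the MCM genes apart from PRL are not analysed here.

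Total RNA of Col-0 seed, labelled with biotin, was hybridised to 8 single-colour arrays, 2 in each of 4 groups. Seed was imbibed for 24 h in water, in 3 µM abscisic acid (ABA) or in 30 µM ABA, and the remaining group was dry seed that received no treatment. ABA is the hormone that keeps seed dormant and delays germination. Replicates are called A and B after the sample titles. The arrays in 3 µM ABA carry title numbers 3 and 5, whereas each other group carries a single number. Separate seed batches are not stated, so p-values measure only the spread between these arrays, which may be technical.

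Before a cell copies its DNA, the MCM helicase is loaded onto replication origins in an inactive form, a step called licensing, and is switched on at the start of S phase. New DNA has to be wrapped on histones at once, so many genes for canonical H2B and H3.1 are transcribed mainly in S phase, while the replacement histone H3.3 is made throughout the cycle. The embryo in a dry seed is largely arrested before S phase, and replication restarts during or after germination. In whole seed, fewer cells of a type and less RNA per cell cannot be told apart.

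Signals are MAS5 values on a linear scale, with a 2% trimmed mean between 100.007 and 100.009 on every array, so changes are relative to a fixed array total. Spike-in scaling, an alternative, used the geometric mean of 18 control probe sets (BioB, BioC, BioD and Cre). That mean was 268 and 279 in dry seed, 125 and 161 in water, 96.1 and 142 at 3 µM ABA and 147 and 186 at 30 µM ABA. It thus differed between replicates, and whether it tracks the RNA content of seed was not tested. The median signal was 30.9 to 33.8 on imbibed arrays and 21.4 and 21.0 on dry arrays, and replicates correlated at r = 0.971 to 0.985 across probe sets. GAPDH control probe sets read the 3' and 5' ends of the transcript, and the ratio of the ends, which tracks RNA quality, was 0.371 to 0.927 on imbibed arrays and 1.81 and 1.69 on dry arrays. That of actin was 2.30 to 3.80 on imbibed arrays and 4.34 and 4.52 on dry arrays. In other control sets the ratio was 0.884 to 1.31 on imbibed arrays and 1.11 and 0.892 on dry arrays for GAPDH, and 1.01 to 1.27 on imbibed arrays and 1.05 and 0.895 on dry arrays for actin. The first pair of ratios moves with every comparison to dry seed, and their part in those results was not tested. Of 8 cruciferin and oleosin genes chosen as seed markers, 3 had a named probe set, OLEO3, AT3G01570 and AT1G03890. Their signals summed to 868 and 796 on the water arrays, 1099 and 1275 at 3 µM ABA, 1464 and 1571 at 30 µM ABA and 6593 and 4001 in dry seed. Of 6 leaf, root, pollen and flower markers only AT3G01270 had a named probe set. It had 6.52 and 5.70 in water, 14.5 and 23.2 at 3 µM ABA, 7.92 and 6.97 at 30 µM ABA and 66.1 and 20.2 in dry seed. Both 3 µM arrays thus lay above the other imbibed arrays. The single marker chosen for endosperm had none.

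PRL (AT4G02060), which encodes the MCM7 subunit of the licensing helicase, was the member with the highest change. In water it had signals of 96.1 and 112, against 12.3 and 6.63 in dry seed. In 3 µM ABA it had 116.8 and 91.1, and in 30 µM ABA 93.5 and 87.4. All 6 imbibed arrays lay far above both dry arrays, and the 3 imbibed groups lay close together. On the log2(signal + 3.99) scale PRL rose by 3.03 ± 0.24 (SE) in water against dry seed (limma adjusted p = 7.92e-06).

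HTB1 (AT1G07790) encodes H2B, which pairs with H2A in the nucleosome core. It had signals of 269 and 272 in water, against 54.3 and 53.6 in dry seed. The ABA arrays had 266.6 and 204 at 3 µM and 239.7 and 226 at 30 µM. Replicates were nearly equal in water and in dry seed, and no imbibed array came near the dry level. Its change was 2.24 ± 0.16 (SE) in water against dry seed (limma adjusted p = 3.52e-06).

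HTB11 (AT3G46030), another H2B gene, moved the opposite way with the deposited scaling. It had signals of 107 and 103 in water, against 201 and 215 in dry seed. In 3 µM ABA it had 73.2 and 120.4, a wider spread than in the other groups, and in 30 µM ABA 97.6 and 117. No imbibed array overlapped the dry arrays. The change in water was -0.96 ± 0.22 (SE, limma adjusted p = 0.00516), but -0.04 with spike-in scaling (limma adjusted p = 0.933), which put the median probe set at 0.59.

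A ratio of both H2B signals on the same array is not moved by the scaling of that array. The log2 ratio of HTB1 to HTB11 was 1.33 and 1.40 in water, with 1.86 and 0.76 at 3 µM ABA and 1.295 and 0.95 at 30 µM ABA, against -1.89 and -2.00 in dry seed. Its difference between imbibed and dry arrays shows unequal change of these probe sets, and the ratio itself compares no transcript levels, since probe sets differ in brightness. The pair was chosen after its values were seen, so no test is given. H2B genes are similar in sequence, and whether each probe set reads only its own gene was not tested.

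HTB2 (AT5G22880), also for H2B, had a smaller rise. Its signals were 55.3 and 64.0 in water, against 31.6 and 24.6 in dry seed. The ABA arrays had 40.6 and 53.1 at 3 µM and 53.8 and 69.4 at 30 µM, so all imbibed arrays lay above the dry ones. The change in water was 0.99 ± 0.24 (SE, limma adjusted p = 0.00635). Set to a common median it was 0.48 (limma adjusted p = 0.119), and after quantile normalization 0.57 (limma adjusted p = 0.0699).

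HTB4 (AT5G59910), the remaining H2B gene, had signals of 630 and 352 in water, against 278 and 296 in dry seed. The ABA arrays read 381 and 326 at 3 µM and 416 and 295 at 30 µM. Replicate A in water stood apart from every other array, and 30 µM ABA overlapped dry seed. The change of 0.71 ± 0.27 (SE) in water did not pass (limma adjusted p = 0.0555). It was 0.29 without water replicate A (limma adjusted p = 0.384) and 1.12 without water replicate B (limma adjusted p = 0.00617). Scaling moved it as well, to 0.14 with a common median and to 1.64 with spike-in scaling (limma adjusted p = 0.00385), and it was called with quantile normalization and with the filter on low values (limma adjusted p = 0.0413 and 0.0356).

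HTR12 (AT1G01370) encodes CENH3, the H3 variant that marks centromeres and in plants is loaded largely after S phase. Its signals were low, at 13.4 and 26.3 in water, against 1.14 and 10.6 in dry seed. In 3 µM ABA it had 15.9 and 12.8, and in 30 µM ABA 12.9 and 13.2. All imbibed arrays were above the dry arrays, although water replicate B and dry replicate A stood apart from their partners. The change in water was 1.41 ± 0.49 (SE, limma adjusted p = 0.0417), with 0.65 without dry replicate A (limma adjusted p = 0.268) and 1.01 without water replicate B (limma adjusted p = 0.234). Leaving out any single ABA array kept the change at 1.41 but ended the call. The call was also lost with a common median or quantile normalization (limma adjusted p = 0.125 and 0.109). In a fit of the 2 groups alone HTR12 was not called either (limma adjusted p = 0.0978).

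**Figure D1:**
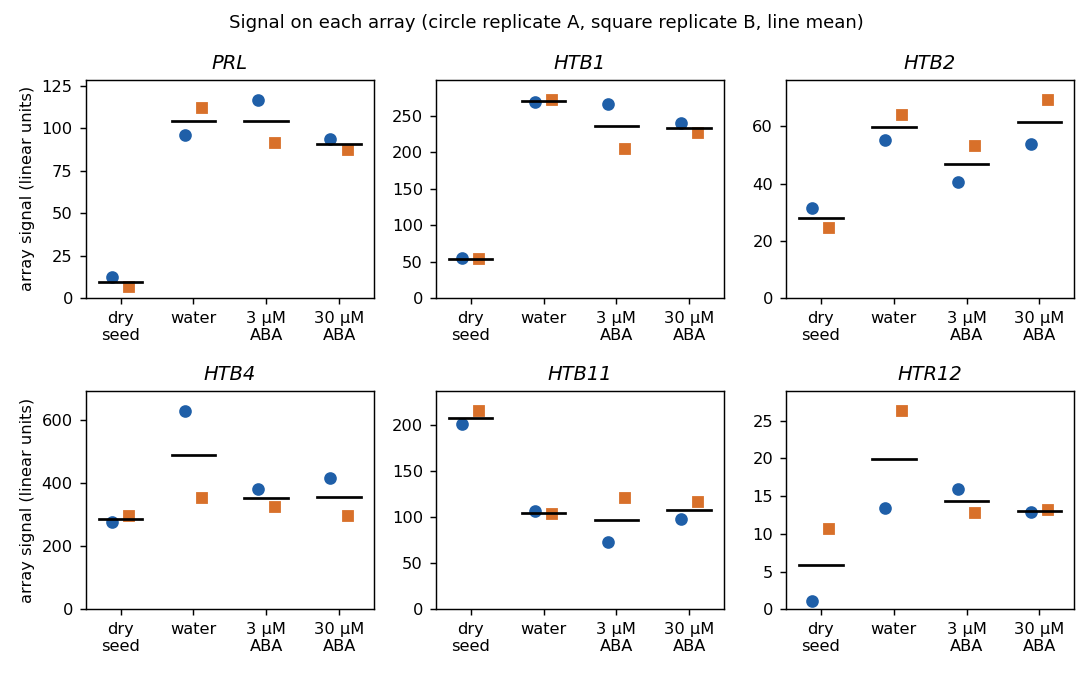
Signal of PRL, HTB1, HTB2, HTB4, HTB11 and HTR12 on each array, on a linear axis that starts at 0, for dry seed and seed imbibed for 24 h in water, 3 µM ABA or 30 µM ABA (circles replicate A, squares replicate B, lines group means of 2). PRL and HTB1 are high on all imbibed arrays, HTB11 is high on the dry arrays at 201 and 215, and water replicate A of HTB4 stands alone at 630.

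Across the 6 members, 4 rose in water against dry seed (PRL, HTB1, HTB2 and HTR12) and 1 fell (HTB11). The calls of HTB2, HTR12 and HTB11 did not hold in every alternative. Of all probe sets, 26.2% were called higher and 20.9% lower in this comparison, at a limma adjusted p under 0.05. The median change of the members was 1.20, against 0.01 for all probe sets. All 6 members also had signals above a filter at the 30th percentile of mean log2 signal, which was not applied here. The direction of calls among all probe sets depends on scaling, with 5967 higher and 4745 lower as deposited, 4054 and 7409 with a common median, and 8588 and 1686 with spike-in scaling. The median probe set lay at -0.33 with a common median and at 0.59 with spike-in scaling. PRL and HTB1 were called higher in each of the 17 alternative settings, with PRL at 2.59 and HTB1 at 1.70 with a common median.

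**Figure D2:**
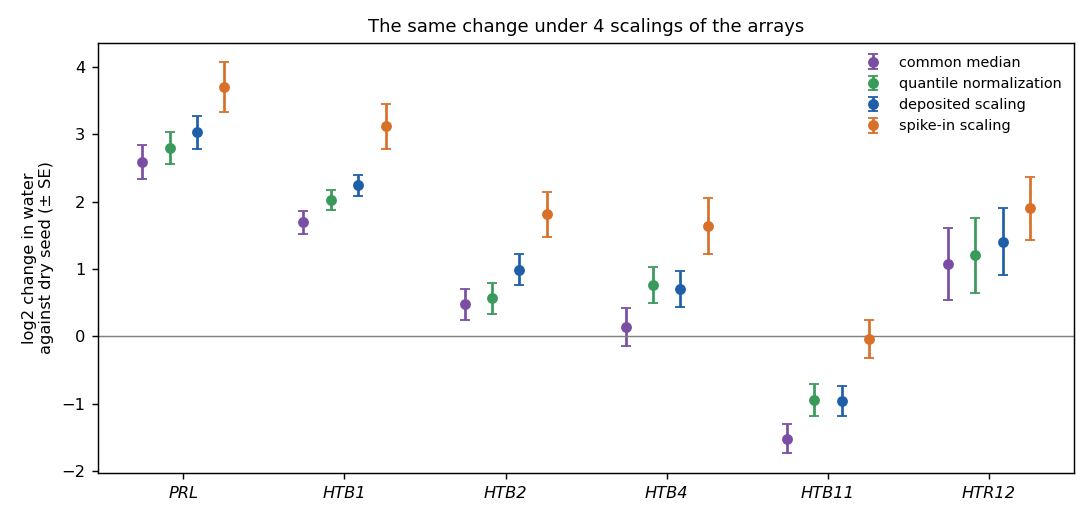
Log2 change in water against dry seed (vertical axis, points with ± SE) for each member when arrays are scaled to a common median, by quantile normalization, as deposited, or by spike-in controls. PRL and HTB1 stay above 0 in all 4 scalings, while HTB11 lies at -0.96 as deposited and at -0.04 with spike-in scaling.

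In 30 µM ABA against dry seed, 3 members rose (PRL, HTB1 and HTB2) and HTB11 fell, where 25% of all probe sets were called higher and 19% lower. PRL changed by 2.84 ± 0.24, HTB1 by 2.03 ± 0.16, HTB2 by 1.03 ± 0.24 and HTB11 by -0.93 ± 0.22 (SE, limma adjusted p at most 0.00654). Without 30 µM replicate A HTB11 was not called (limma adjusted p = 0.0584), nor was HTB2 without 30 µM replicate B (limma adjusted p = 0.0611). In 3 µM ABA against dry seed, the calls were again PRL, HTB1 and HTB2 higher and HTB11 lower, where 26.9% and 19.2% of all probe sets were called higher and lower. PRL changed by 3.02, HTB1 by 2.03 and HTB11 by -1.11. HTB2, at 0.66 ± 0.24 (SE), was close to the threshold (limma adjusted p = 0.0447), and leaving out any array other than dry replicate A or 3 µM replicate A ended its call. HTB4 and HTR12 were called in neither, with changes of 0.29 and 0.97 at 30 µM and 0.29 and 1.08 at 3 µM. Without dry replicate B HTR12 was called higher in both, at 1.73 in 30 µM and 1.83 in 3 µM (limma adjusted p = 0.0134 and 0.00989). HTB2 was not called at either dose with a common median (0.45 at 30 µM and 0.09 at 3 µM) or quantile normalization (0.53 and 0.18), and HTB11 at neither dose with spike-in scaling (-0.23 and 0.076). With spike-in scaling HTR12 was called at both doses (1.29 at 30 µM and 1.81 at 3 µM, limma adjusted p = 0.0385 and 0.00402) and HTB4 at 3 µM (1.502, limma adjusted p = 0.006), whereas with a common median HTB4 lay at -0.35 and -0.33. The median change of the members was 1.001 at 30 µM and 0.87 at 3 µM, against 0.02 and 0.14 for all probe sets. All 3 comparisons share the dry arrays. As in water, the split of calls among all probe sets moved with scaling, at 5688 higher and 4325 lower for 30 µM as deposited, 3527 and 7401 with a common median and 7252 and 1573 with spike-in scaling. For 3 µM it was 6113 and 4377 as deposited, 3793 and 6997 with a common median and 11675 and 1183 with spike-in scaling.

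The comparison of ABA with water asks whether the hormone holds these transcripts below their level in water at 24 h. No member was called in 30 µM ABA against water, and none had an unadjusted p under 0.05 in limma. Of all 22746 probe sets, 0.0484% were called there and 1627 had an unadjusted p under 0.05. PRL changed by -0.19 (95% interval -0.74 to 0.36) and HTB1 by -0.21 (-0.57 to 0.14). For HTB2 and HTB11 the changes were 0.04 (-0.50 to 0.57) and 0.03 (-0.47 to 0.52). HTB4 changed by -0.42 (-1.03 to 0.18), and HTR12 by -0.43 (-1.55 to 0.68). Both rest on single water arrays, with HTB4 at -0.0074 without water replicate A and -0.84 without water replicate B, and HTR12 at -0.83 without replicate A and -0.04 without replicate B. The median of the members was -0.20, against 0.01 for all probe sets. The intervals for PRL, HTB1 and HTB2 did not reach a fall as large as their rise from dry seed, and they leave room for smaller differences. Those of HTB4 and HTR12 reached past their changes of 0.71 and 1.41 in water against dry seed. All these intervals hold only the spread between these arrays, so they do not cover differences between seed batches. GAPDH and actin control ratios lay higher on both water arrays than on all ABA arrays in 1 set of controls each, at 1.31 and 1.05 against 0.884 to 0.974 for GAPDH and 2.94 and 3.80 against 2.30 to 2.73 for actin, and their part in these differences was not tested.

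In 3 µM ABA against water 0 members were called by limma, and 0 had an unadjusted p under 0.05, where 0% of all probe sets were called and 1133 had an unadjusted p under 0.05. As deposited, all 6 members had negative changes, with a median of -0.27 against 0.05 for all probe sets. PRL lay at -0.0081 (95% interval -0.56 to 0.54), HTB1 at -0.21 (-0.56 to 0.15), HTB2 at -0.33 (-0.86 to 0.20) and HTB11 at -0.15 (-0.65 to 0.34). HTB4 lay at -0.41 (-1.02 to 0.19) and HTR12 at -0.33 (-1.45 to 0.79). Without water replicate A HTB4 lay at 0.0012 and HTR12 at -0.73, and without water replicate B they lay at -0.83 and 0.07. With spike-in scaling PRL lay at 0.26, HTB1 at 0.066 and HTB11 at 0.11, where the median probe set lay at 0.28. HTB2, HTB4 and HTR12 stayed negative. This comparison shares the water arrays with that of 30 µM ABA. Set directly against 3 µM ABA, 30 µM ABA gave 0 calls among the members, 0 with an unadjusted p under 0.05 in limma, where 0% of all probe sets were called and 907 had an unadjusted p under 0.05. The changes ran from -0.18 for PRL to 0.37 for HTB2.

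**Figure D3:**
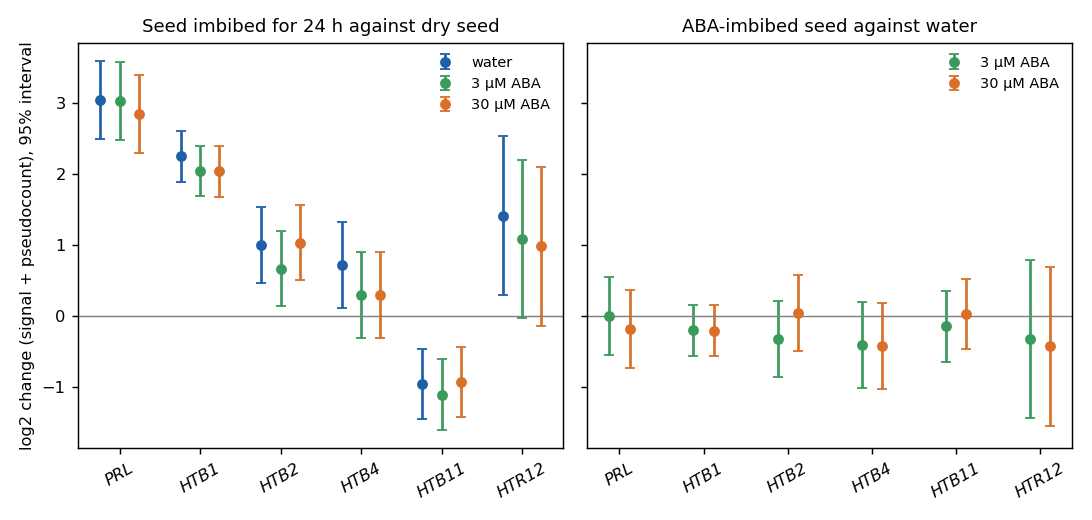
Log2 change of each member with its 95% interval, on the left for seed imbibed in water, 3 µM ABA or 30 µM ABA against dry seed, and on the right for 3 µM and 30 µM ABA against water. PRL and HTB1 lie far above 0 on the left in all 3 media, and every interval on the right includes 0.

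Other cell cycle genes were taken from a list of 118 loci, of which 2 are members and 8 others had a probe set of their own. In water against dry seed 2 of the 8 rose and 2 fell, with a median of 0.49, where 26.2% of all probe sets were called higher and 20.9% lower, so these shares are near the background. ICU2, the catalytic subunit of DNA polymerase alpha, which starts new strands, had 44.2 and 49.2 in water, against 2.27 and 5.14 in dry seed, and 28.8 to 39.8 on the ABA arrays. It rose by 2.74 ± 0.30 (SE, limma adjusted p = 4.88e-05). SIM (SIAMESE), an inhibitor of cyclin-dependent kinases known for promoting endoreduplication, rose by 0.63 ± 0.21 (SE, limma adjusted p = 0.0312), and lay at 0.07 with a common median. Its call was lost without dry replicate A or water replicate B (limma adjusted p = 0.175 and 0.171).

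AUR2, an Aurora kinase of mitosis, fell. It had 40.8 and 69.8 in water, against 292 and 289 in dry seed, and 45.7 to 67.7 on the ABA arrays, a change of -2.36 ± 0.27 (SE, limma adjusted p = 6.49e-05). The other Aurora genes did not pass in water, AUR1 at 0.41 and AUR3 at 1.25 (limma adjusted p = 0.461 and 0.084). AUR3 rose in 30 µM ABA against dry seed (1.48, limma adjusted p = 0.048), and in water it was called with spike-in scaling (1.96), the filter on low values, the replicate block or without water replicate A (limma adjusted p = 0.0016 to 0.0479). AUR3 replicates disagreed, at 22.9 and 54.1 in water against 14.3 and 11.1 in dry seed. AT5G26680, listed with the replication fork and named by locus only, fell by -0.69 ± 0.18 (SE, limma adjusted p = 0.0111), but lay at 0.21 with spike-in scaling, and was not called without dry replicate B or water replicate B (limma adjusted p = 0.0594 and 0.0665). PSF2, of the GINS complex of the moving helicase, changed by -0.06, and AT1G07270, listed with the prereplication complex, by 0.57. PSF2 was called lower with a common median (-0.61, limma adjusted p = 0.0194) and higher with spike-in scaling (0.84, limma adjusted p = 0.0395). AT1G07270, with signals of 3.8 to 13.9, was called higher with spike-in scaling (1.09, limma adjusted p = 0.0415). In ABA against water 0 of the 8 were called by limma at either dose, and 0 had an unadjusted p under 0.05. Of all probe sets, 0.0484% were called at 30 µM and 0% at 3 µM, and 1627 and 1133 had an unadjusted p under 0.05.

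A further 22 genes of replication and repair, chromatin assembly and mitosis were chosen by symbol after the annotation was seen. Of these 6 rose and 6 fell in water against dry seed, with a median of 0.35, again near the 26.2% and 20.9% of all probe sets. Among 9 genes of DNA replication and repair, 3 rose and 1 fell. POLA3, a DNA primase subunit, had 70.7 and 61.6 in water, against 5.75 and 14.0 in dry seed, and rose by 2.40 ± 0.30 (SE). ATIM (TIMELESS), named for a protein that steadies stalled forks in yeast and animals, had 29.0 and 34.9 in water, against 1.22 and 2.25 in dry seed, a change of 2.65 ± 0.30 (SE). TOP3A, topoisomerase 3alpha, rose by 2.47 ± 0.35 (SE, limma adjusted p = 0.000302). RAD4, whose yeast namesake recognises damaged bases for excision repair, had 123 and 119.8 in water, against 662 and 619 in dry seed, and fell by 2.36 on the log2 scale.

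Chromatin genes of that list went both ways in water against dry seed, 1 higher and 3 lower of 5. Of all probe sets, 26.2% were called higher and 20.9% lower. ASF1B, a chaperone that hands new H3 and H4 to replicating DNA, had 118.8 and 185 in water, against 34.3 and 29.8 in dry seed, and rose by 2.09 ± 0.22 (SE, limma adjusted p = 3.91e-05). Its relative SGA2 (ASF1A) changed by 0.36 and did not pass (limma adjusted p = 0.12), and lay at -0.20 with a common median. HIS1-3, a linker histone known to be induced by drought and ABA, had 12.9 and 30.0 in water, against 696 and 450 in dry seed, the lowest change of the list at -4.56 ± 0.48 (SE). In ABA it had 24.9 and 74.1 at 3 µM and 52.0 and 74.0 at 30 µM, and its change of 1.47 ± 0.48 (SE) in 30 µM ABA against water did not pass over all probe sets (limma adjusted p = 0.492). MGH3, for the H3 of male gametes, fell to 4.2 and 1.3 in water, against 16.8 and 17.6 in dry seed. HON4, of the linker histone group, fell by 0.43 on the log2 scale as deposited and lay at 0.50 with spike-in scaling. It was not called with quantile normalization, without the intensity trend or in a fit of the 2 groups alone (limma adjusted p = 0.0615, 0.092 and 0.0559). Its call was lost without any single array of water or dry seed (limma adjusted p = 0.0756 to 0.122).

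Of 8 mitosis genes 2 rose and 2 fell in water, near the 26.2% and 20.9% of all probe sets. BUB3.1, of the spindle checkpoint, rose by 0.92 ± 0.29 (SE), and WYR, related to the INCENP partner of Aurora kinases, by 1.25 ± 0.33 (SE). Signals of WYR were at most 9.4 on any array. KINESIN-12B, a motor of the division plane, had 0.4 and 3.1 in water, against 13.0 and 16.7 in dry seed. CDC27a, of the anaphase-promoting complex, fell by 1.301 on the log2 scale (limma adjusted p = 0.046). The call of BUB3.1 was lost without dry replicate A, dry replicate B or water replicate B, and that of WYR without dry replicate B or water replicate B. That of CDC27a was lost without any array of dry seed, without water replicate A and without any array of 30 µM ABA. BUB3.1 was not called with a common median or quantile normalization either (0.39 and 0.56, limma adjusted p = 0.271 and 0.15). Nor was CDC27a with spike-in scaling (-0.54, limma adjusted p = 0.35) or without the intensity trend (limma adjusted p = 0.0511). In 30 µM ABA against water 0 of the 22 genes were called by limma, and 2 had an unadjusted p under 0.05, HIS1-3 and, at 0.47, HBT (CDC27b). Of all 22746 probe sets, 0.0484% were called in that comparison and 1627 had an unadjusted p under 0.05. In 3 µM ABA against water 0 of the 22 were called by limma and 0 had an unadjusted p under 0.05. Of all probe sets, 0% were called there and 1133 had an unadjusted p under 0.05.

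Probe sets that the annotation assigns to several core histone genes lay outside the rule, and were looked at after the annotation was seen. For H3.1, the replication-dependent H3, 5 probe sets are each listed for the same 5 genes. In water against dry seed 4 of them rose and 1 fell, with a median of 2.28, where 26.2% of all probe sets were called higher and 20.9% lower. They share their listed genes, so they are not independent. The highest had 173 and 306 in water, against 14.4 and 9.37 in dry seed, a change of 3.90 ± 0.27 (SE). The one that fell had 56.9 and 47.6 in water, against 261 and 203 in dry seed (-2.07 ± 0.22, SE). In 30 µM ABA against water 0 of the 5 were called by limma and 1 had an unadjusted p under 0.05, at -0.58. Of all probe sets, 0.0484% were called there and 1627 had an unadjusted p under 0.05. In 3 µM ABA against water all 5 lay below 0, with a median of -0.27 against 0.05 for all probe sets. There 0 were called by limma and 1, the same probe set, had an unadjusted p under 0.05, at -0.63. At that dose 0% of all probe sets were called and 1133 had an unadjusted p under 0.05.

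For H3.3, the replacement H3, 3 probe sets are listed for the same 3 genes. None was called in water against dry seed, where 26.2% of all probe sets were called higher and 20.9% lower. None had an unadjusted p under 0.05 in limma, where 11907 of all probe sets did, and the median was 0.09. The 3 probe sets share their listed genes, so they are not independent. Their signals were 1102 to 1799 in water, 942 to 1237 in 3 µM ABA, 954 to 1108 in 30 µM ABA and 1017 to 1860 in dry seed. With a common median 1 of the 3 was called lower in water (-0.98, limma adjusted p = 0.00702), and with spike-in scaling another was called higher (1.22, limma adjusted p = 0.0177). In ABA against dry seed 1 of the 3 was called lower at each dose, at -0.85 in 30 µM and -0.73 in 3 µM. Of all probe sets, 19% were called lower in 30 µM and 19.2% in 3 µM. In ABA against water all 3 lay below 0 at each dose, with medians of -0.42 in 30 µM and -0.32 in 3 µM. For all probe sets the medians were 0.01 and 0.05. None of the 3 was called by limma or had an unadjusted p under 0.05. Of all probe sets, 0.0484% and 0% were called, and 1627 and 1133 had such a p. For H4, the partner of H3, 5 probe sets are listed for HIS4 with 7 other genes. Of these 3 rose and 0 fell in water against dry seed, with a median of 0.66, beside the same 26.2% and 20.9% of all probe sets. In ABA against water 0 of these 5 were called by limma at either dose, and 0 had an unadjusted p under 0.05. Their medians were 0.04 in 30 µM and -0.10 in 3 µM, beside the same background as for H3.3. Of the 3 that rose, 1 kept its call in all 17 alternatives, at 1.77 ± 0.32 (SE, limma adjusted p = 0.00138). It had 83.9 and 95.5 in water, against 34.7 and 15.4 in dry seed. The highest, a dim probe set, rose by 1.89 ± 0.50 (SE), with 32.8 and 18.1 in water, against 0.93 and 8.00 in dry seed. Its call was lost without dry replicate A or water replicate A (limma adjusted p = 0.0856 and 0.0919). Another of the 3, at 0.66, lost its call without dry replicate B or water replicate A (limma adjusted p = 0.0779 and 0.0743) and lay at 0.10 with a common median.

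**Figure D4:**
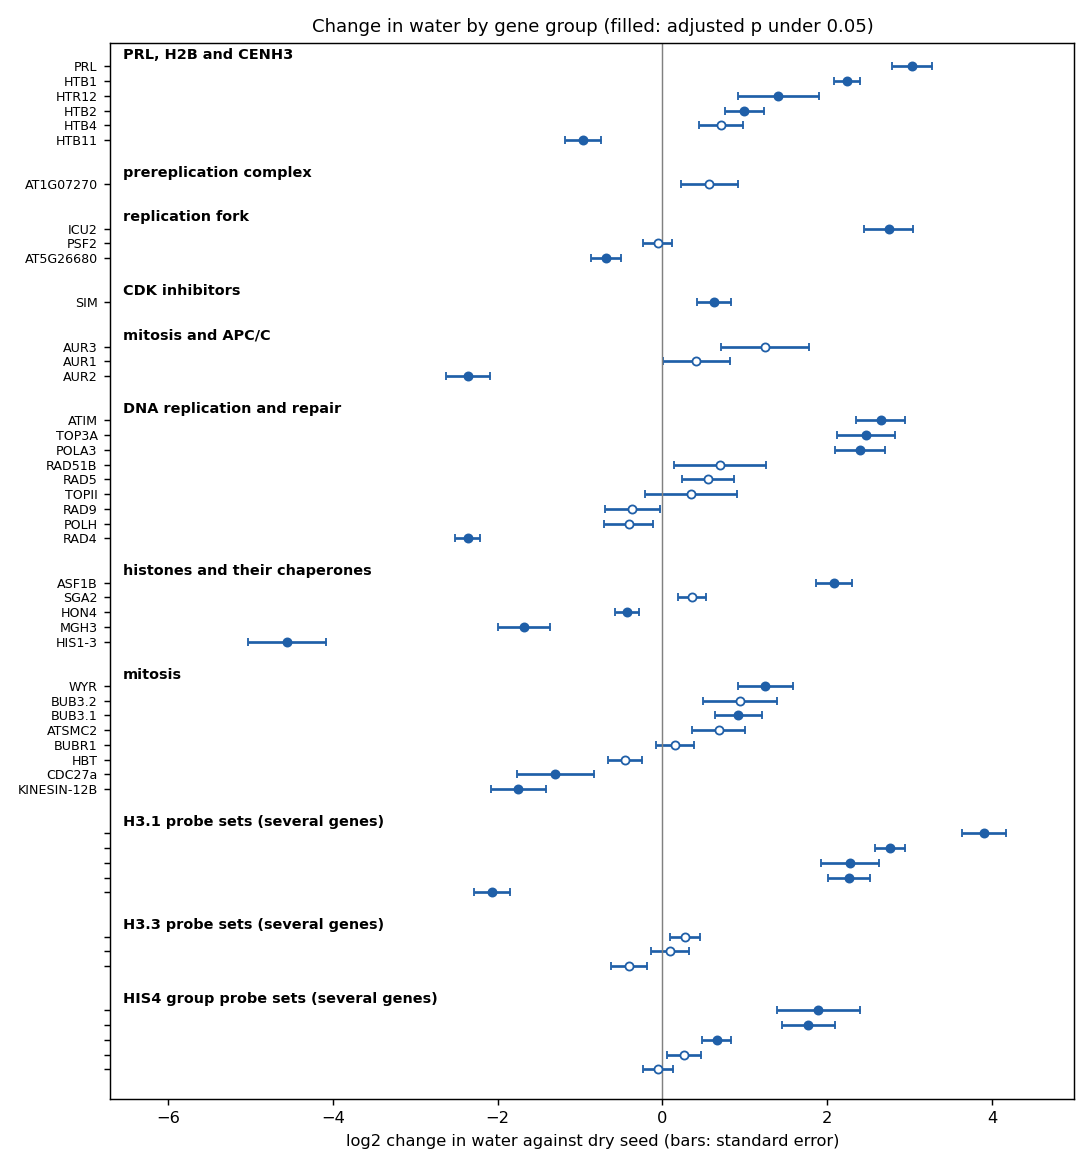
Log2 change in water against dry seed (horizontal axis, bars SE) for the members, the listed cell cycle genes, the genes added by symbol and the probe sets of several histone genes, each a row, filled where the limma adjusted p is under 0.05. PRL, HTB1, ICU2, POLA3, ATIM, TOP3A, ASF1B and 4 of 5 H3.1 probe sets lie above 2, while AUR2, RAD4, HIS1-3 and 1 H3.1 probe set lie below -2.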

How the data were processed

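Signal intensities, 1 per probe set and array on a linear scale, were used as deposited by the authors. Per the submitters' processing notes the tool was MAS5 (version not given in the sources used here), and detection calls were not used. The table held 22810 probe sets, 64 of them controls. Platform annotation named 1 gene for 13513, several for 503 and none for 8730, and 13436 single-gene probe sets matched RefSeq (TAIR10.1, names only). No coordinates or sequences are given, and promoter motifs were not searched.

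All 22746 other probe sets, with no filter on low values, entered a single fit of 8 arrays in limma 3.58.1 (R 4.3.3) on log2(signal + 3.99), where 3.99 is the 20th percentile over the deposited values. The fit had 4 residual degrees of freedom, empirical Bayes moderation with an intensity trend and 6 two-sided contrasts, adjusted by Benjamini-Hochberg, with calls at an adjusted p under 0.05. Fold changes on this scale understate the change of dim probe sets. The script was tested on simulated data.

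Every probe set that met the rule is named. From the listed cell cycle genes the highest and lowest called gene of each subgroup is named, and a gene with several probe sets is represented by the brightest. Other genes, among them AUR1, AUR3, PSF2, AT1G07270 and those of the added list, were named after their values were seen. The members and lists were chosen with earlier results of these data known. The 17 alternatives changed the pseudocount, filter, scaling, trend, block or arrays used. The number of arrays limits the precision.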

Additional observations from a re-analysis of the deposited data

How the results depend on the processing

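With a common median 2 members were called higher in water against dry seed, in place of 4, and 1 of the 8 listed cell cycle genes, in place of 2. All probe sets shifted as well, from 5967 higher and 4745 lower as deposited to 4054 and 7409. Scaling by spike-in controls took them to 8588 and 1686 in water. It took them to 7252 and 1573 in 30 µM ABA, and to 11675 and 1183 in 3 µM ABA. The list counts given here for these scalings moved in the direction of this background, and whether they moved further was not tested. With spike-in scaling 0 members were called lower in water, 0 in 30 µM ABA and 0 in 3 µM ABA against dry seed, in place of 1 each, 5 were higher in 3 µM ABA in place of 3, listed genes gave 5 higher and 1 lower in water in place of 2 and 2, and the added list 10 higher in place of 6. The same scaling turned the sign of a called value, or gave a call of the other sign, for PSF2 (0.84), AT5G26680 (0.21), HON4 (0.50), an H4 probe set (0.86) and, in 3 µM ABA against dry seed, HTB11 (0.076). Signs with no call on either side also turned in water against dry seed, with spike-in scaling for POLH (0.44), RAD9 (0.36), HBT (0.45) and an H3.3 probe set (0.54), and with a common median for AUR1 (-0.0042), SGA2 (-0.20), 2 H3.3 probe sets (-0.30 and -0.48) and an H4 probe set (-0.30). Without an intensity trend 1 listed gene was called higher in water. Leaving out single arrays gave 0 to 1 members lower in 30 µM ABA against dry seed, and 1 to 3 listed genes higher and 1 to 2 lower in water. The causes were not tested. In 30 µM ABA against water all probe sets gave 11 calls, 31 with a pseudocount of 1, 1 with a pseudocount of 16, 72 with the filter, 1 with a common median, 27 with spike-in scaling, 0 without the trend or with those 4 arrays alone, and 0 to 46 without single arrays. No member was called in ABA against water under any of the 17 alternatives. Replicate letters were not taken as pairs, since the A minus B differences correlated at 0.18 and 0.125 between water and the ABA groups but at -0.050 to 0.045 between the other groups, and the labels name no shared batch. With the replicate block HTB4 (0.71, limma adjusted p = 0.0225) and AUR3 (1.25, limma adjusted p = 0.0264) were called higher in water, the calls of no other named gene in water against dry seed changed, members called in ABA against water stayed at 0, and all probe sets gave 45 calls in 30 µM ABA against water.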
